A study of Homo sapiens with 8 samples.

Results

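Peaks that fall in long terminal repeat (LTR) retroelements were examined in 6 chromatin immunoprecipitation sequencing (ChIP-seq) peak lists of dnTCF1E, a FLAG-tagged dominant negative form of the Wnt transcription factor TCF1E, in DLD-1 colon cancer cells. A peak was taken as a member when the detailed annotation deposited with it named an element of the LTR class. The rule found 1918 LTR peaks among 23433 peaks, and it used neither a score nor a motif. Both cell lines are clonal DLD-1 derivatives that carry a doxycycline-inducible transgene, of dnTCF1EWT in one line and of dnTCF1Emut in the other. The mutant protein differs from dnTCF1EWT by 5 residues of its C-clamp, which has thereby lost its contact with DNA. Each line was left without doxycycline (0 h) or given 1 µg/mL for 2 or 9 h before immunoprecipitation with anti-FLAG beads, and the endogenous TCFs were present throughout. The 6 lists are called WT or mut with the hours of induction. Each list was made from pooled duplicates, so no spread between replicates can be given, and a Fisher's exact test on numbers of peaks speaks of a pair of lists, not of biological replicates. Since each protein had its own line and libraries, a difference between the proteins cannot be told apart from one between lines.

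LTR retroelements are remnants of retroviral integrations. An intact copy has an internal region between a pair of LTRs, and the LTRs hold the promoter and enhancer sequences of the former virus. Many copies are solitary LTRs, which can be used as regulatory elements of the host genome. In human, they are grouped into ERV1 (gammaretrovirus-like), ERVK (betaretrovirus-like, with the MER11 LTRs among them), ERVL and its relative ERVL-MaLR, which holds the old and abundant THE1, MST and MLT elements. TCFs bind the Wnt response element (WRE, CTTTGWWS in the files) through a high mobility group box. The C-clamp of the E-tail isoforms binds GC-rich Helper sites, searched in the files as RCCGCC and as the short form RCCG.

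The lists held 1907 peaks for WT 0 h, 5585 for WT 2 h, 12996 for WT 9 h, 708 for mut 0 h, 1883 for mut 2 h and 354 for mut 9 h. Sequencing depth is not given by the lists. Their other contents differed. SINE peaks made up 49.5% of WT 2 h and 76.2% of WT 9 h against 2.81% of mut 2 h, and simple repeats 78.7% of mut 0 h. Comparisons between lists were therefore made over the 1000 peaks with the highest scores in each, or all peaks in the shorter lists. The score is the MACS peak score, which grows with the significance of a peak against its background, has a floor near 50 in each list and is not scaled for depth.

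The untreated dnTCF1Emut line had almost no LTR peaks, whereas near the top of the other 5 lists the shares lay between 8.19% and 11.5%. LTR elements accounted for 214 of the WT 0 h peaks, 660 at WT 2 h, 814 at WT 9 h, 2 at mut 0 h, 199 at mut 2 h and 29 at mut 9 h. In all listed peaks these were shares of 11.2%, 11.8%, 6.26%, 0.282%, 10.6% and 8.19%. Among the 1000 highest peaks they were 11.5% at WT 0 h (95% Wilson interval 9.67 to 13.6), 10.6% at WT 2 h (8.84 to 12.7), 10.2% at WT 9 h (8.47 to 12.2) and 9.20% at mut 2 h (7.56 to 11.2). The intervals overlap, and like all intervals given here they cover counting error only. Of 6 planned comparisons of the LTR share, 1 passed the test. The odds of an LTR annotation were higher at mut 2 h than at mut 0 h, with an odds ratio of 35.7 (95% interval 9.55 to 300, two-sided Fisher's exact test, adjusted p = 8.03e-19, Benjamini-Hochberg over 26 tests). The simple repeat peaks of mut 0 h had a median GC content of 5.83%, and with peaks compared within strata of 5% GC the odds ratio was 3.64 (0.821 to 16.2). Without SINE and simple repeat peaks it was 9.63 (2.55 to 81.3). The odds ratio of WT 2 h against mut 2 h was 1.17 (0.863 to 1.59, exact adjusted p = 0.505), of WT 9 h against WT 2 h 0.958 (0.711 to 1.29) and of WT 2 h against WT 0 h 0.913 (0.683 to 1.22). These 3 depended on the peaks compared. The first was 0.672 within GC strata (0.483 to 0.933), and the second was 0.499 over all listed peaks and 1.59 without SINE and simple repeat peaks. The third was past the threshold, and lower, within GC strata (0.662, 0.494 to 0.887), without SINE and simple repeat peaks (0.406) and without MER11 peaks (0.686).

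LTR peaks ranked lower than non-repeat peaks of the same list. At WT 2 h, 346 of 660 LTR peaks (52.4%) stood above the median score of the list, against 1172 of 1492 non-repeat peaks (78.6%), an odds ratio of 0.301 (0.246 to 0.368, Fisher's exact test, adjusted p = 7.7e-32). The odds ratio was 0.539 at WT 9 h (0.452 to 0.643, exact adjusted p = 7.56e-12) and 0.636 at mut 2 h (0.461 to 0.873, exact adjusted p = 0.00927). The median score of LTR peaks was 59.8 at WT 2 h, 57.6 at WT 9 h and 71.7 at mut 2 h, against 92.9, 64.7 and 86.8 in non-repeat peaks. In the same order it was 56.8, 56.6 and 80.1 in LINE peaks and 55.6, 56.2 and 74.0 in SINE peaks. By this median, LTR peaks stood above both in the induced WT lists and below both at mut 2 h. WT LTR peaks were also short, with a median length of 199 bp at WT 2 h and 178 bp at WT 9 h, whereas those of mut 2 h had 476 bp. LINE and SINE peaks had median lengths of 198 and 167 bp at WT 2 h and of 469 and 437 bp at mut 2 h. LTR peaks were mostly intergenic, with 74.2% at WT 2 h, 73.7% at WT 9 h and 73.4% at mut 2 h. In non-repeat peaks 43.6%, 37.7% and 51.0% were intergenic. This contrast is partly set by the annotation. At WT 2 h the 660 LTR peaks were either intergenic (490) or intronic (170). Of the 1492 non-repeat peaks, 650 were intergenic and 595 intronic, and the others had annotations that no LTR peak had. The intergenic shares were 69.5%, 63.9% and 65.3% in LINE peaks and 48.8%, 50.3% and 39.6% in SINE peaks. Within 2 kb of a transcription start site there were 10 LTR peaks at WT 2 h, 7 at WT 9 h and 4 at mut 2 h. The same limit of the annotation applies to these counts.

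ERVL-MaLR was the most frequent LTR family of the untreated WT line, and ERV1 that of both 2 h lists. Before induction, 108 of the 214 WT LTR peaks (50.5%) were ERVL-MaLR, 73 were ERV1 (34.1%), 24 ERVL (11.2%) and 9 ERVK (4.21%). At WT 2 h the list held 235 ERV1 peaks (35.6%), 207 ERVL-MaLR (31.4%), 158 ERVK (23.9%) and 57 ERVL (8.64%), and at WT 9 h 330, 244, 182 and 57. At mut 2 h there were 82 ERV1 peaks (41.2%), 75 ERVK (37.7%), 23 ERVL-MaLR (11.6%) and 17 ERVL (8.54%). ERVK had 9 peaks at WT 0 h and 158 at WT 2 h. In the mut line, where the untreated list held 2 LTR peaks in all, ERV1 went from 1 to 82 and ERVK from 1 to 75. At mut 9 h, 11 ERVK, 8 ERVL-MaLR, 5 ERV1 and 5 ERVL peaks remained listed. The remaining 6 peaks of all lists carried the label Gypsy or an uncertain family.

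**Figure D1:**
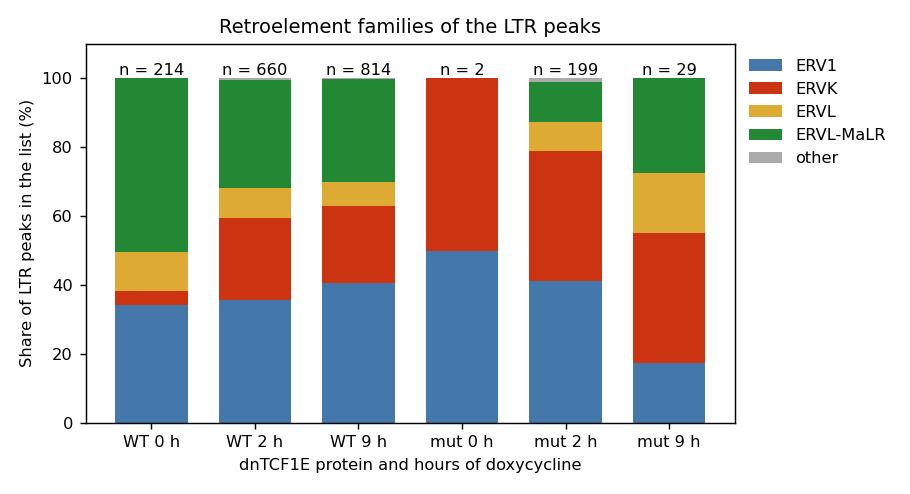
Share of the LTR peaks of each list (vertical axis, %) in the families ERV1, ERVK, ERVL, ERVL-MaLR and other, with the number of LTR peaks above each bar; the bars are the 6 lists by protein and hours of doxycycline. ERVK takes 4.21% at WT 0 h, 23.9% at WT 2 h and 37.7% at mut 2 h, and ERVL-MaLR 50.5%, 31.4% and 11.6%; the mut 0 h bar rests on 2 peaks.

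Near the top of the 2 h lists no family share passed the test between the proteins. Of the 106 LTR peaks among the highest 1000 of WT 2 h, 40 were ERVK (37.7%) and 38 ERV1 (35.8%), and of the 92 of mut 2 h, 40 were ERVK (43.5%) and 27 ERV1 (29.3%). The odds ratio of WT against mut was 0.789 for ERVK (0.429 to 1.45, Fisher's exact test, adjusted p = 0.641), 1.34 for ERV1 (0.709 to 2.57, exact adjusted p = 0.527), 1.00 for ERVL-MaLR (0.416 to 2.44) and 1.03 for ERVL (0.400 to 2.69). These intervals are wide and do not show that the shares are equal. Within GC strata the odds ratios were 2.34 for ERV1 (1.11 to 4.93) and 0.459 for ERVK (0.232 to 0.907), neither past the threshold after adjustment. Over all listed peaks the ERVL-MaLR share was higher at WT 2 h (odds ratio 3.49, exact adjusted p = 2.39e-08) and the ERVK share lower (0.521, exact adjusted p = 0.000497). The ERVL-MaLR peaks of WT 2 h stood low in the list: 15 of 207 (7.25%) were among the highest 1000, against 40 of 158 ERVK peaks (25.3%).

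The LTR peaks were spread over 254 element names, of which 73 had 1 peak in all lists. WT 2 h held 170 names and mut 2 h 82, with 58 in common, which is 34.1% of the WT and 70.7% of the mut names. The 10 names with the most WT 2 h peaks, by the rule of naming, took 266 of the 660 WT 2 h peaks (40.3%) and 91 of the 199 mut 2 h peaks (45.7%). They fell into 3 patterns, given here as counts with no test.

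The MER11 LTRs of the ERVK family were nearly absent before induction. MER11A had no peak in either 0 h list, 37 at WT 2 h, 75 at WT 9 h, 54 at mut 2 h and 7 at mut 9 h. MER11B had 33 at WT 2 h and 30 at WT 9 h but 5 at mut 2 h, and MER11C, which had 2 at WT 0 h, had 21 and 14 in the induced WT lists and 1 at mut 2 h. MER11A was thus listed for both proteins, with more peaks at mut 2 h than at WT 2 h. Its relatives MER11B and MER11C had fewer at mut 2 h. All LTR peaks were also fewer there, with 199 against 660 at WT 2 h, and a difference between the names was not tested. LTR14C, another ERVK LTR, had 1 peak at WT 0 h, 11 at WT 2 h, 6 at WT 9 h and 1 at mut 2 h.

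MER4E, an ERV1 LTR, was beside MER11A the other of these names with more peaks at mut 2 h than at WT 2 h, with 28 and 23. It had no peak at 0 h in either line, 9 at WT 9 h and 2 at mut 9 h. Of the 23 WT 2 h peaks, 13 overlapped a mut 2 h peak and 4 a WT 9 h peak.

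The THE1 and MST elements of ERVL-MaLR were listed in the WT line whether or not the protein was induced. THE1B had 30 peaks at WT 0 h, 63 at WT 2 h and 56 at WT 9 h, but none at mut 0 h, 1 at mut 2 h and none at mut 9 h. MSTA had 14, 27 and 23 in the WT lists and none in the mut lists, THE1C 16, 17 and 16 and none, and THE1D 9, 21 and 28 and 1 at mut 2 h. All names that begin with THE1 or MST were grouped after their values were seen. They had 100 peaks at WT 0 h, 166 at WT 2 h, 207 at WT 9 h, 6 at mut 2 h and 4 at mut 9 h. Their median scores were low in the WT lists, with 55.1, 56.5 and 55.7, and were 59.2 at mut 2 h and 86.1 at mut 9 h. Of the 63 THE1B peaks of WT 2 h, 2 overlapped a WT 0 h peak and 2 a WT 9 h peak, against 8 and 115 of all 660 LTR peaks (1.21% and 17.4%). LTR12C of ERV1 had 5, 13 and 32 peaks in the WT lists and none in the mut lists. MER41B of ERV1 had 0, 11 and 5 and none, and MLT2A2 of ERVL 5, 11 and 14, with 1 at mut 2 h and 1 at mut 9 h. These were also mostly WT names, but so were LTR peaks as a whole, with 214, 660 and 814 in the WT lists against 2, 199 and 29. MER41B and MLT2A2 tie with LTR14C for the tenth place.

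**Figure D2:**
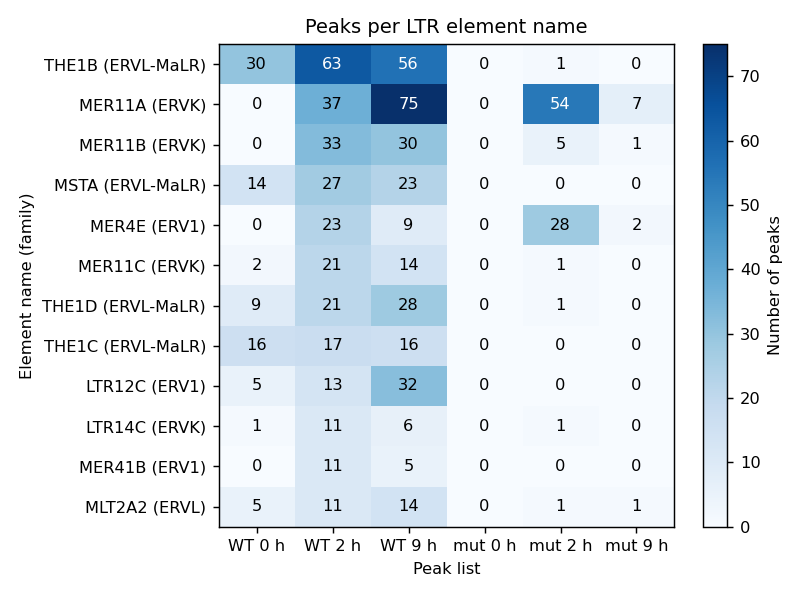
Number of peaks (cell values and colour scale) per LTR element name (rows, with family) in each of the 6 lists (columns); rows are the 12 names with 11 or more WT 2 h peaks, in order of that number. MER11A has 0, 37 and 75 peaks in the WT lists and 0, 54 and 7 in the mut lists, whereas THE1B has 30, 63 and 56 against 0, 1 and 0.

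ERVK peaks carried the WRE more often than the other families in each induced list with more than 100 LTR peaks. At WT 2 h, 68 of 158 ERVK peaks (43.0%, 95% Wilson interval 35.6 to 50.8) held 1 or more WREs, against 41 of 235 ERV1 (17.4%, 13.1 to 22.8), 12 of 57 ERVL (21.1%, 12.5 to 33.3) and 23 of 207 ERVL-MaLR peaks (11.1%, 7.52 to 16.1). At WT 9 h the ERVK share was 56.6% (49.3 to 63.6) and the next was ERVL with 24.6% (15.2 to 37.1). At mut 2 h it was 81.3% (71.1 to 88.5), against 47.8% in ERVL-MaLR (29.2 to 67.0), 47.1% in ERVL and 37.8% in ERV1 (28.1 to 48.6). Over all listed peaks, the ERVK interval in these lists lay above those of the other families. Among the highest 1000 peaks the ERVK share was still the highest, but its interval overlapped that of the next family. At WT 2 h the ERVK share was 72.5% (57.2 to 83.9), against 53.3% in ERVL-MaLR (30.1 to 75.2). At WT 9 h it was 84.4% (71.2 to 92.3), against 6 of 10 ERVL peaks (31.3 to 83.2). At mut 2 h it was 34 of 40 peaks (70.9 to 92.9), against 61.5% in ERVL-MaLR (35.5 to 82.3). Over all listed mut 2 h peaks, MER11A made up 54 of the 75 ERVK peaks and 51 of the 61 ERVK peaks with a WRE. In the short mut 9 h list, all 11 ERVK and all 8 ERVL-MaLR peaks held a WRE. Mut peaks were longer, and per length the density of WREs in ERVK peaks was 2.31 per kb at WT 2 h, 3.67 at WT 9 h and 4.63 at mut 2 h.

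**Figure D3:**
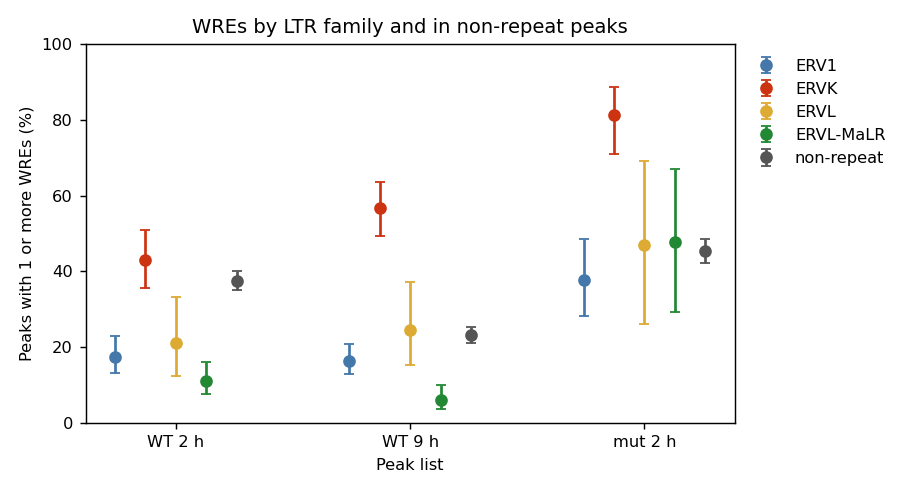
Share of peaks with 1 or more WREs (vertical axis, %) by LTR family and in non-repeat peaks, for the WT 2 h, WT 9 h and mut 2 h lists (horizontal axis); points are shares of all listed peaks and bars 95% Wilson intervals. ERVK has 43.0%, 56.6% and 81.3%, non-repeat peaks 37.5%, 23.1% and 45.4%.

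By element name the share of peaks with a WRE differed widely. The MER11 names together held 39 of the 145 WT 2 h LTR peaks with a WRE (26.9%). Of the 15 names with 10 or more WT 2 h peaks, LTR14C had a WRE in 9 of 11 peaks (81.8%), MER11A in 26 of 37 (70.3%) and LTR13A, also of ERVK, in 7 of 10 (70.0%). None of the 63 THE1B, 17 THE1C, 11 MER41B and 11 MLT2A2 peaks held one. MER11A peaks with a WRE were 62 of 75 at WT 9 h, 51 of 54 at mut 2 h and 7 of 7 at mut 9 h. MER11B had 6 of 33 at WT 2 h and MER11C 7 of 21, so the MER11 names differed in the share of peaks with a WRE. MER4E held a WRE in 4 of 23 WT 2 h peaks and 8 of 28 mut 2 h peaks, although it was listed for both proteins.

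Most LTR peaks with 3 or more WREs in these 3 lists were in MER11A. Peaks with 3 or more were 13 at WT 2 h, 17 at WT 9 h and 29 at mut 2 h among all LTR peaks, and 10, 16 and 28 of these were MER11A. The density of WREs in MER11A was 4.47 per kb at WT 2 h, 5.55 at WT 9 h and 5.55 at mut 2 h, against 1.25, 1.52 and 2.40 in all LTR peaks, MER11A included. LTR13A came near it, with 3.72 at WT 2 h (10 peaks) and 4.26 at WT 9 h (12 peaks). At WT 2 h the median score of MER11A peaks was 69.6 with no WRE (11 peaks), 76.3 with 1 (8 peaks), 108 with 2 (8 peaks) and 137 with 3 or more (10 peaks). In this list the median score was higher with more WREs. Peaks with 2 or more WREs were also longer, with median lengths of 214, 170, 362 and 557 bp in the same order, and the part of length in the order of the scores was not tested. At mut 2 h the medians were 52.7 with no WRE (3 peaks), 58.9 with 1 (5 peaks), 87.9 with 2 (18 peaks) and 88.0 with 3 or more (28 peaks). At WT 9 h the median scores did not rise at each step. They were 55.95 with no WRE (13 peaks), 68.2 with 1 (17 peaks), 62.8 with 2 (29 peaks) and 90.5 with 3 or more (16 peaks).

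The WRE was more frequent in the high LTR peaks of the WT line after induction, as it was in the other classes of peaks. Among the highest 1000 peaks, 9 of 115 LTR peaks held a WRE at WT 0 h (7.83%) and 60 of 106 at WT 2 h (56.6%), an odds ratio of 15.1 (6.76 to 37.7, Fisher's exact test, adjusted p = 6.38e-15), which was 4.35 over all listed peaks and 7.92 within strata of 200 bp of peak length. Over the same ranks the share went from 7.86% to 50.7% in non-repeat, from 21.6% to 60.6% in LINE and from 1.86% to 28.8% in SINE peaks. In LTR peaks it stayed at 65 of 102 at WT 9 h (63.7%), and the odds ratio against WT 2 h was 1.34 (0.743 to 2.44, exact adjusted p = 0.505). At mut 2 h, 60 of 92 held a WRE (65.2%), and the odds ratio of WT 2 h against mut 2 h was 0.697 (0.375 to 1.29, exact adjusted p = 0.454). The 2 LTR peaks of mut 0 h both held a WRE, which leaves the comparison with mut 2 h without use (exact adjusted p = 0.704). Over all listed peaks the WT 2 h share was 21.97% and the mut 2 h share 56.8% (odds ratio 0.215, exact adjusted p = 5.92e-19). Without the MER11 elements the shares among the highest 1000 were 51.9% and 51.7%.

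Whether LTR peaks held the WRE more or less often than non-repeat peaks depended on the protein and on the rank. Over all listed peaks it was less often at WT 2 h, in 145 of 660 against 559 of 1492 peaks (21.97% and 37.5%, odds ratio 0.470, 0.377 to 0.583, Fisher's exact test, adjusted p = 2.25e-12). It was more often at mut 2 h, in 113 of 199 against 444 of 978 (56.8% and 45.4%, odds ratio 1.58, 1.15 to 2.18, exact adjusted p = 0.00927). At WT 9 h the shares were 22.97% and 23.1% (odds ratio 0.991, 0.806 to 1.21). Within strata of peak length the odds ratio was 0.726 at WT 2 h and 1.41 at WT 9 h, and without MER11 elements that of WT 9 h was 0.618. Over the highest 1000 peaks, the odds ratio was 1.27 at WT 2 h (exact adjusted p = 0.419), 1.86 at mut 2 h (exact adjusted p = 0.0329) and 2.25 at WT 9 h (exact adjusted p = 0.00212), so that the direction at WT 2 h turned. Without MER11 elements the shares at mut 2 h were 43.2% and 45.4% (odds ratio 0.914, exact adjusted p = 0.794), and within strata of GC content the odds ratio there was 1.22 (0.884 to 1.69).

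The rank bins show where LTR and non-repeat peaks of WT 2 h parted. In ranks 1 to 100, 7 of 10 LTR peaks held a WRE (70.0%), in ranks 101 to 500 22 of 36 (61.1%) and in ranks 501 to 1000 31 of 60 (51.7%), against 56.0%, 50.6% and 49.6% of non-repeat peaks. From rank 2001 to 4000 the shares were 10.8% (7.47 to 15.3) in LTR and 23.02% (18.4 to 28.5) in non-repeat peaks, and beyond rank 4000 12.8% and 12.4%. ERVL-MaLR took 15 of the 106 LTR peaks to rank 1000 and 101 of the 241 from rank 2001 to 4000, where SINE peaks were 61.6% of the list.

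**Figure D4:**
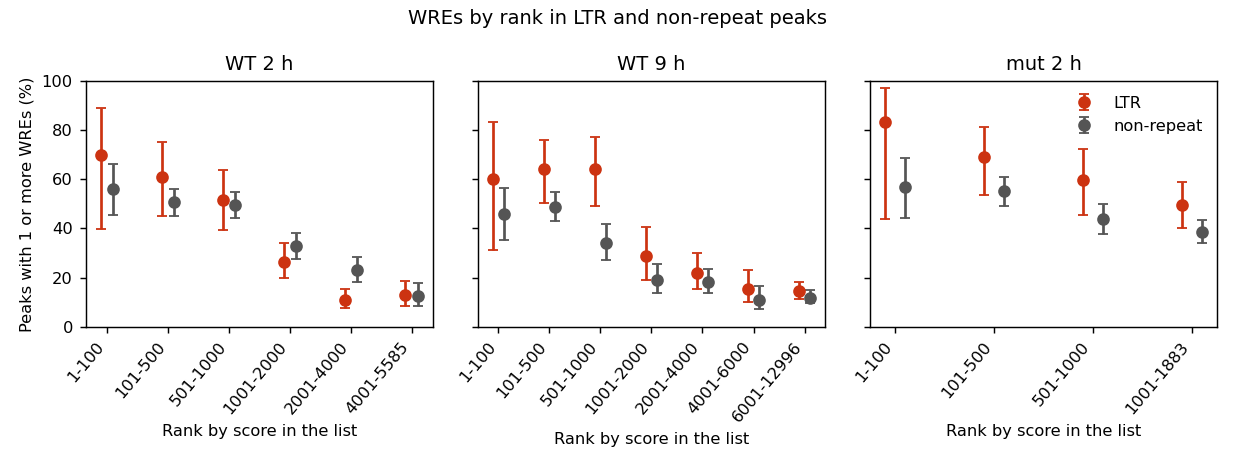
Share of peaks with 1 or more WREs (vertical axis, %) in LTR and non-repeat peaks by bins of rank by score (horizontal axis, rank 1 is the highest), in the WT 2 h, WT 9 h and mut 2 h lists; bars are 95% Wilson intervals. At WT 2 h the LTR share falls from 70.0% in ranks 1 to 100 to 10.8% in ranks 2001 to 4000; the first LTR bins hold 10, 10 and 6 peaks.

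Helper sites were more frequent in the high LTR peaks of dnTCF1EWT than in those of dnTCF1Emut. Among the highest 1000 peaks, the RCCGCC Helper was in 24 of 106 LTR peaks at WT 2 h (22.6%) and in 8 of 92 at mut 2 h (8.70%), an odds ratio of 3.06 (1.24 to 8.34, Fisher's exact test, adjusted p = 0.0240). The non-repeat peaks had shares of 20.9% and 7.89% in the same lists. The short Helper was in 77.1% and 54.7% of the non-repeat peaks. In the LTR peaks it was in 81 (76.4%) and 55 (59.8%), an odds ratio of 2.17 (1.13 to 4.22, exact adjusted p = 0.0282). Within strata of GC content the odds ratios were 2.57 (1.02 to 6.50, not past the threshold in the continuity-corrected Mantel-Haenszel test) and 1.18 (0.599 to 2.32), and the median GC content of these peaks was 44.7% at WT 2 h and 41.7% at mut 2 h. Within strata of peak length they were 3.75 and 4.19. Over all listed peaks they were 1.16 (exact adjusted p = 0.717) and 0.769 (exact adjusted p = 0.241).

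The short Helper in the high LTR peaks was counted by family, with no test of a difference between families. In the high ERVK peaks it was in 36 of 40 at WT 2 h and in 34 of 40 at mut 2 h, whereas in ERV1 it was in 29 of 38 and 12 of 27 and in ERVL-MaLR in 9 of 15 and 3 of 13. In ERVL it was in 7 of 13 and 5 of 11. LTR14C carried the RCCGCC Helper in 6 of 11 WT 2 h peaks, MER11A in 6 of 37, THE1B in 6 of 63 and MER4E and MSTA in none of 23 and 27. Against non-repeat peaks, LTR peaks of WT 2 h held fewer Helper sites, with 9.24% against 17.5% for RCCGCC (odds ratio 0.480, 0.351 to 0.649, exact adjusted p = 1.12e-06) and 44.7% against 68.2% for RCCG (0.377, 0.310 to 0.456, exact adjusted p = 1.77e-23). Over the highest 1000 peaks these odds ratios were 1.11 (exact adjusted p = 0.820) and 0.961 (exact adjusted p = 0.902), and within GC strata that of RCCGCC was 0.778 (0.560 to 1.08).

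The highest LTR peaks were in elements of different families. At WT 2 h the first was in MLT1E2 (ERVL-MaLR) at hg19 chr17:4110195-4110703, in an intron of ANKFY1, with a score of 897, rank 25 in the list, 1 WRE and 2 short Helpers. It was listed again at WT 9 h with 530 and in no mut list. The second was in MER11A at chr4:145508688-145509314, 58.1 kb from the start of HHIP, which encodes a Hedgehog-binding membrane protein. It scored 891 with 3 WREs, 3 short Helpers and 1 Helper, and was listed at WT 9 h with 332, at mut 2 h with 623 and at mut 9 h with 150.

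The third, in MER61F (ERV1) at chr4:69598441-69598950, 62.2 kb from UGT2B15, a glucuronosyltransferase gene, had no WRE but 3 short Helpers and 1 Helper. Its score was 867 at WT 2 h, 270 at WT 9 h and 159 at mut 2 h. It was followed by MLT1G1 at chr15:84799070-84799781 near LOC100505679, with 805 and 2 WREs, and by MER11C at chr2:108990031-108990624, 4.09 kb from the start of SULT1C4, a sulfotransferase gene, with 749, 1 WRE and 6 short Helpers. The MER11C peak was listed at WT 9 h with 124 and in no mut list, and none of the 21 MER11C peaks of WT 2 h overlapped a mut 2 h peak, against 11.2% of all WT 2 h LTR peaks.

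At mut 2 h the first LTR peak was in LTR22A (ERVK) at chr2:71615176-71615788, in an intron of ZNF638, with a score of 947 and rank 4 of the list. It held 7 WREs, the most of any LTR peak. This region was listed in 5 of the 6 lists, with 395 at WT 2 h, 925 at WT 9 h, 67.3 at mut 0 h and 290 at mut 9 h, and it is the LTR region found in the most lists. The MER11A peak near HHIP was the second. MER11A peaks near ZNF675 (chr19:23832586-23833221, 5 WREs, score 331) and LOC388692 (chr1:149151034-149151634, 4 WREs, score 312) were the third and the fifth, and neither overlapped a WT 2 h peak. The fourth was in MLT1G3 at chr9:83617007-83617619, 686 kb from the start of TLE1, with 314 at mut 2 h, 514 at WT 2 h and 68.4 at WT 9 h.

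At WT 9 h the LTR22A region was the highest LTR peak, at rank 8. It was followed by a MER11A peak in an intron of NBAS (chr2:15398687-15399311, 3 WREs) with 569 at WT 9 h, 382 at WT 2 h and 70.5 at mut 2 h, by the ANKFY1 region, by an LTR7B (ERV1) peak nearest to HAS2, a hyaluronan synthase gene, and by the HHIP region. The LTR7B peak held none of the 3 motifs and scored 470 at WT 9 h, 130 at mut 2 h and 242 at mut 9 h, with no overlapping WT 2 h peak. At mut 9 h the first 3 were the LTR22A, LTR7B and HHIP regions. At WT 0 h the first 3 were in LTR47A near SNORD119 (chr20:2423669-2424209, score 203), MLT2B3 near SYNM (chr15:99618636-99618920, score 156) and THE1B near LOC439949 (chr10:6641766-6642057, score 104), none with a WRE, a short Helper or a Helper. The second LTR peak of mut 0 h, beside LTR22A, was in LTR61 near ZNF724P with a score of 58.0.

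LTR regions listed for both proteins at 2 h scored higher with dnTCF1EWT in 48 of 74 cases, and all shared regions in 335 of 527. Of the 660 LTR peaks of WT 2 h, 74 (11.2%) overlapped a mut 2 h peak by 1 base or more, against 368 of 1492 non-repeat peaks (24.7%), an odds ratio of 0.386 (0.291 to 0.507, Fisher's exact test, adjusted p = 6.86e-13). Among the highest 1000 WT peaks the shares were 42.5% and 36.9% (odds ratio 1.26, exact adjusted p = 0.419), which turns the direction. Over all listed WT 2 h peaks, the share that overlapped a mut 2 h peak was 9.03% in LINE and 0.868% in SINE peaks, both below the LTR share. In the other list, 75 of 199 LTR peaks of mut 2 h (37.7%) overlapped a WT 2 h peak. This was near the share of non-repeat peaks, with 365 of 978 (37.3%). The LINE and SINE counts there were 45 of 173 and 21 of 53. Over the 74 regions the median log2 ratio of the WT to the mut score was 0.43 with quartiles of -0.16 and 1.06. A log2 ratio of 1 or more was found in 21 of the 74 (28.4%), against 31.7% of all 527 shared regions, and one of -1 or less in 8 (10.8%), against 10.4%. These shares are near the background. Scores are not scaled for depth, so the ratio of a pair of lists as a whole has no zero point.

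By family the median log2 score ratio was 0.55 in 29 ERVK regions, 0.30 in 29 ERV1, 0.42 in 6 ERVL-MaLR and 0.05 in 8 ERVL regions. The 20 MER11A regions had a median of 0.52, and 15 of them scored higher at WT 2 h. The 13 MER4E regions had a median of 0.30, with 7 higher. The MER11A region in NBAS had the highest ratio among the MER11A regions, with 382 against 70.5, a log2 ratio of 2.44. In the 48 LTR regions with a short Helper the median ratio was 0.53 and in the 26 without it 0.30, with quartiles of -0.13 and 1.55 and of -0.19 and 0.57. The spreads overlap, and the regions with a short Helper were longer (505 against 339 bp).

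Of the 10 shared LTR regions with the highest WT score, 9 scored higher at WT 2 h than at mut 2 h. Beside those already given, these were MER11B in an intron of ARHGAP32 (chr11:128868955-128869727, 665 against 189), MER67B near SFTA1P (chr10:10847284-10847845, 582 against 130), MER11B in an intron annotated near WDR5B (chr3:122162224-122162918, 578 against 142) and LTR64 near INADL (chr1:62201827-62202345, 490 against 113). Neither MER11B peak held a WRE, and they held 6 and 3 short Helpers. The exception was the LTR22A region with 395 against 947. Since these 10 were chosen by their WT score, the direction was favoured by the choice.

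**Figure D5:**
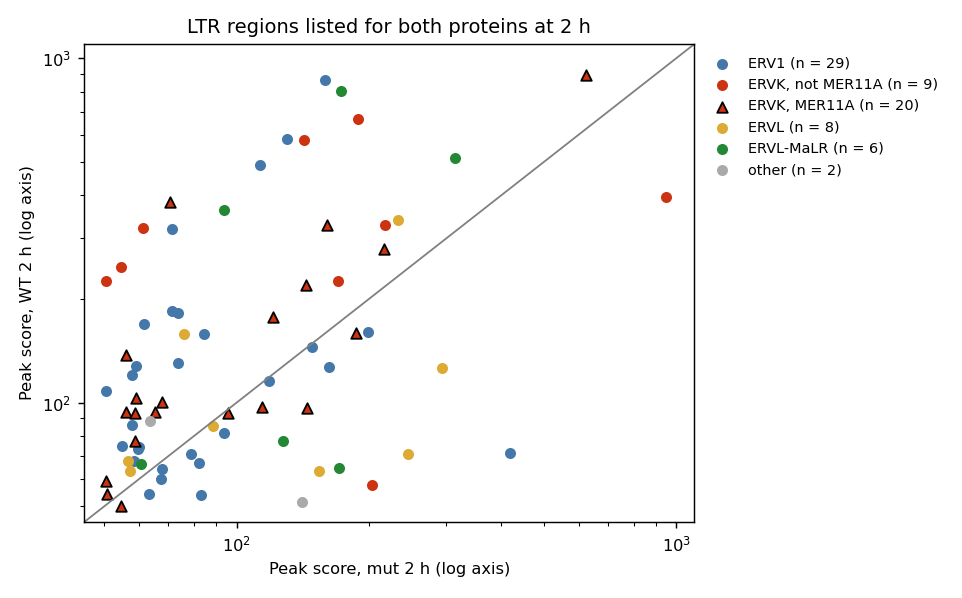
Peak score at WT 2 h (vertical log axis) against that of the overlapping mut 2 h peak (horizontal log axis) for the 74 LTR regions listed for both proteins, by family, with MER11A as triangles; the grey line marks equal scores. Of these, 48 points lie above the line, among them 15 of the 20 MER11A regions.

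Most LTR peaks of WT 2 h were not listed again at WT 9 h, while 22 of the 37 MER11A peaks were. Of the 660 WT 2 h LTR peaks, 115 (17.4%) overlapped a WT 9 h peak, against 482 of 1492 non-repeat peaks (32.3%, odds ratio 0.442, 0.349 to 0.558, Fisher's exact test, adjusted p = 1.33e-12). Of all 5585 peaks of WT 2 h, 833 overlapped a WT 9 h peak, and the shares were 6.30% in LINE and 6.58% in SINE peaks. Over the highest 1000 peaks the LTR and non-repeat shares were 61.3% and 48.5% (odds ratio 1.69, 1.09 to 2.63, exact adjusted p = 0.0388), again in the other direction. A WT 9 h peak was overlapped by 11 of 33 MER11B and 9 of 21 MER11C peaks. Of the 37 MER11A peaks, 16 were among the highest 1000 of WT 2 h, against 106 of all 660 LTR peaks. The part of rank in the MER11A overlap was not tested. The median log2 score ratio of WT 2 h to WT 9 h was 0.24 in the 115 LTR regions, 0.73 in the 482 non-repeat regions and -0.01 in the 22 MER11A regions. A log2 ratio of 1 or more was found in 33 LTR regions (28.7%), against 31.2% of all 833 shared regions, and one of -1 or less in 8 (6.96%), against 5.04%. In the mut line, 21 LTR peaks of mut 2 h overlapped a mut 9 h peak, and 13 of them (61.9%) had a log2 ratio of 2 h to 9 h of 1 or more, against 53.4% of all 234. Untreated cells shared few of these regions: 8 of the 660 WT 2 h LTR peaks overlapped a WT 0 h peak (1.21%) and 1 a mut 0 h peak, against 1.41% and 0.737% of non-repeat peaks.

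When overlapping LTR peaks of all lists were merged, 1684 regions resulted, of which 1508 (89.5%) were in 1 list, 127 in 2, 42 in 3 and 7 in 4 or 5. Peaks of other classes were not merged, so this share has no background and is not shown to be particular to LTR regions. Of all 5585 WT 2 h peaks, 833 overlapped a WT 9 h peak and 527 a mut 2 h peak. MER11A made up 115 of the regions, on 22 chromosomes, with a WRE in at least 1 list in 94. Of these, 78 were in 1 list (67.8%), 17 in 2, 19 in 3 and 1 in 4, whereas 140 of the 145 THE1B regions were in 1 list (96.6%). In 17 MER11A regions listed at WT 2 h, WT 9 h and mut 2 h, the median scores were 103, 127 and 95.7, and the highest of the 3 scores was that of WT 2 h in 7, of WT 9 h in 7 and of mut 2 h in 3. The 7 regions in 4 or 5 lists were LTR22A in ZNF638 and a second LTR22A region near DYSF, MER11A near HHIP, MER11B near IPMK, MLT1G1 near LOC100505679, LTR33 near NIPBL and MER21C near PQLC3. The second LTR22A region (chr2:71622435-71622807) scored 57.7 at WT 2 h, 205 at WT 9 h, 203 at mut 2 h and 68.3 at mut 9 h, and like the first it scored lower at WT 2 h than at WT 9 h or mut 2 h.

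Few LTR peaks were nearest to a Wnt pathway or target gene, and the shares were not tested. Of a list of 52 such genes, part of it taken from the study's own targets, 4 were nearest to an LTR peak at WT 2 h, 2 at WT 9 h, 1 at mut 2 h and none in the other lists. This is 0.606% of the LTR peaks at WT 2 h against 1.29% of all peaks and 2.55% of non-repeat peaks, and 0.503% against 1.70% and 2.66% at mut 2 h. The LTR peaks were the MLT1G3 peak 686 kb from TLE1, a Groucho corepressor gene, a THE1D peak 50.1 kb from BAMBI, a TGF-beta pseudoreceptor gene (score 68.4 at WT 2 h and 54.5 at WT 9 h), a THE1B peak 160 kb from SOX9 (54.8) and an MSTA peak 504 kb from TBX3 (54.3). The peak near TLE1 held 1 WRE, and the others held none.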

How the data were processed

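Chromatin from 2 clonal DLD-1 lines was immunoprecipitated with anti-FLAG beads. Per the submitters' processing notes, CASAVA 1.8.2, Bowtie2 2.0.0, MACS 1.3 and HOMER 3.16 were used with hg19. The authors called peaks on pooled duplicates, although most labels speak of a first replicate, and deposited a peak score for each peak, which is not scaled for depth. The deposited GC content is a fraction and is given in percent. The numbers of WRE, short Helper and Helper matches within each peak are HOMER's. The BED files, which hold the same peaks, and the input samples were not used. Peak sequences were not analysed here.

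From these tables, class, family and element name were read from the detailed annotation. Non-repeat peaks are those whose annotation names no repeat element. Peaks were ranked by score. HOMER assigns a peak by its centre, so a peak can extend beyond its element. Reads that map to several copies of a repeat are a limit of any peak list in young elements, and how the authors placed them is not given in the sources used here.

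Shares have 95% Wilson intervals, and the lists were compared with two-sided Fisher's exact tests and conditional odds ratios (SciPy 1.17.1). The main p-values were adjusted by Benjamini-Hochberg over 26 tests, with a threshold of 0.05. Those of each alternative were adjusted separately, over the tests that could be run in it. Strata were pooled by the Mantel-Haenszel method (statsmodels 0.14.6) in Python 3.11.15. The code was tested on simulated data. Named were the 10 element names with most WT 2 h peaks, the 5 or 3 highest LTR peaks of a list, the 10 highest shared regions, LTR peaks nearest to Wnt list genes, and the extremes of the WRE share among names with 10 or more peaks. Regions in 4 or 5 lists were named after their values were seen. The members and lists were chosen with earlier results of these data known. Alternatives were the number of ranked peaks, chromosome Y, peaks of untreated cells, strata of 5% GC, the kind of non-repeat peak and an overlap of 50%. Strata of 200 bp of length and leaving out SINE and simple repeat or MER11 peaks were added after seeing the data.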

Additional observations from a re-analysis of the deposited data

Results flagged for a closer look

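The number of peaks moved in opposite directions from 2 h to 9 h in the 2 cell lines. LTR peaks at 9 h were 1.23 times those at 2 h in the WT line and 0.146 times in the mut line, ERVK peaks 1.15 and 0.147 times, and MER11A peaks 2.03 and 0.130 times. All peaks moved likewise, 2.33 and 0.188 times, and with 1 pooled list per condition these differences were not tested.

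The odds ratio of a WRE in LTR against non-repeat peaks was 3.36 times higher at mut 2 h than at WT 2 h over all listed peaks (95% interval 2.31 to 4.89, from the standard errors of the log odds ratios). Among the highest 1000 peaks both odds ratios were above 1.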

How the results depend on the processing

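Of 162 repeats of the 26 tests, 114 kept their direction and side of the threshold, and the cause of the other changes was not tested. Values below are odds ratios. Over all listed peaks, the LTR share gave 1.06 for WT 2 h against WT 0 h, 0.499 for WT 9 h against WT 2 h and 0.749 for WT 9 h against mut 9 h. For WT 2 h against mut 2 h, WRE, Helper and short Helper in LTR peaks gave 0.215, 1.16 and 0.769, and the shares of ERV1, ERVL-MaLR and ERVK 0.789, 3.49 and 0.521. Over 350 peaks, the same comparison gave 0.604 for ERVL, 0.977 for ERVL-MaLR, 4.97 for the short Helper and 2.61 for the Helper, and WT 9 h against WT 2 h gave 0.940 for the WRE and 1.12 for the LTR share.

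For LTR against non-repeat peaks among the highest 1000, overlap with WT 9 h and mut 2 h gave 1.69 and 1.26, the WRE 2.25 at WT 9 h and 1.27 at WT 2 h, and Helper and short Helper 1.11 and 0.961. With intronic and intergenic non-repeat peaks alone, the WRE at WT 9 h gave 0.702.

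Within GC strata, the LTR share gave 0.672 for WT 2 h against mut 2 h, 0.662 for WT 2 h against WT 0 h, 1.09 for WT 9 h against WT 2 h, 0.663 for WT 9 h against mut 9 h, 1.17 for mut 9 h against mut 2 h and 3.64 for mut 2 h against mut 0 h. Short Helper and Helper in LTR peaks gave 1.18 and 2.57, Helper against non-repeat peaks 0.778, and the WRE against non-repeat peaks 1.22 at mut 2 h and 0.738 at WT 9 h. In length strata the last was 1.41.

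Without MER11 elements, the WRE in LTR peaks gave 1.01 for WT 2 h against mut 2 h and 0.957 for WT 9 h against WT 2 h, the LTR share 0.686 for WT 2 h against WT 0 h, and the WRE against non-repeat peaks 0.618 at WT 9 h and 0.914 at mut 2 h. Without SINE and simple repeat peaks, the LTR share gave 0.406 for WT 2 h against WT 0 h, 1.59 for WT 9 h against WT 2 h and 1.16 for mut 9 h against mut 2 h. Without chromosome Y, the Helper gave 2.74 and ERVL-MaLR 0.997. Without peaks of untreated cells, the LTR share gave 0.863 for WT 9 h against mut 9 h, 1.08 for mut 9 h against mut 2 h and 0.970 for WT 2 h against mut 2 h, and ERV1 0.966.

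No paired analysis was possible because each condition is 1 pooled list. A comparison over the highest 1000 does not apply to the position above the median score, and the highest 350 peaks of mut 0 h hold no LTR peak, against 29 of mut 2 h, so the comparisons of these lists gave no odds ratio there. With 1 list per condition, no value here has a replicate check.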
